A study of Mus musculus with 24 samples.

Results

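The genes described here are 45 genes of the amino acid stress response that is driven by the transcription factor ATF4. They were taken as a fixed list of symbols, and a probe counted for a gene when the RefSeq transcript it was designed on carried that symbol in the GRCm38.p6 annotation. Of the 45 genes, 44 had a probe by this rule, out of 45547 gene or probe names on the array, 22881 of them symbols. Pycr1, an enzyme of proline synthesis, had none and is not analysed here. In all, 64 probes covered the 44 genes, with 1 probe for 26 of them and at most 4.

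When a cell runs short of an amino acid, uncharged tRNA activates the kinase GCN2, which phosphorylates the initiation factor eIF2 and slows protein synthesis. Stress in the endoplasmic reticulum, haem shortage and viral RNA act on the same factor through other kinases. Translation of the Atf4 mRNA rises under these conditions, so that ATF4 protein can accumulate without a change in its own mRNA, and ATF4 with a C/EBP partner then switches on genes that make, import and charge amino acids. Its targets also include brakes on the response, such as Trib3 and Ppp1r15a, and the pro-apoptotic factor Ddit3 (CHOP). The response has been described in melanoma and in leukemia cells, where asparagine and cystine supply are among its known inputs.

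RNA was measured on 24 single-colour Agilent mouse arrays, 1 sample per array, from 7 cell lines of 2 mouse models of tumour dormancy. The melanoma lines were B16F1-GFP-M (3 arrays, called M), the parental B16F1 line carrying green fluorescent protein, B16F1-GFP-D (4 arrays, D), a dormant line recovered from mice after immunotherapy, and B16F1-GFP-DB#1 (4 arrays), B16F1-GFP-DB#2 (3) and B16F1-GFP-DB#3 (3), dormant lines of a second generation from the brain. All 5 lines were grown in DMEM with serum. The myeloid lines were M0 (4 arrays) and J365 (3 arrays); their labels call them myeloid cells and do not tie them to a named leukemia line, and their medium is not given. Every line was expanded in culture before RNA was taken, so the arrays describe cultured cells and not cells in a dormant tumour. The labels do not say whether arrays of a line came from separate cultures, and p-values measure only the spread between these arrays. Changes of RNA per cell cannot be told apart here from changes in the share of cells that express a gene.

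The value of a gene is its normalized log2 signal, the log2 intensity of its brightest probe minus the 75th percentile of the array. Probes differ in brightness, so values are compared between arrays for the same gene and never between genes. The share of probes well above background, by the mark of the scanner software, was 47.4% to 53.8% on 22 arrays, 43.6% on D replicate 1 and 89.9% on D replicate 3. All 12 melanocyte markers were well above background on all melanoma arrays and 3 to 5 of them on the myeloid arrays, with mean levels of 5.53 to 6.72 and -5.01 to -4.14, respectively. All 12 blood cell markers were read on the myeloid arrays (mean 2.69 to 3.37) and 2 to 9 of them on the melanoma arrays (-5.12 to -3.37; at most 6 without D replicate 3). Of 10 brain cell markers 5 to 10 were read on the melanoma arrays, and of 6 fibroblast markers 1 to 5. Without D replicate 3, at most 7 brain and 3 fibroblast markers were read there.

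ATF4 and its partners bind a composite of a C/EBP and an ATF site, known as the amino acid response element, with the core TGATGNAA (TTNCATCA on the other strand). This core was searched on both strands of RefSeq promoter sequences, from 250 bases before to 50 bases after each start, for the 38 members that had one. It was found in 16 of the 38 (42.1%), compared with 4.51% of 27025 genes, and in 12 members the match lay wholly before the start (3.91% of all genes). Pycr1, which had no probe, is among the genes with a match. The members were listed as genes of this response, so the enrichment is a property of the list. The sequences of 8 members are shown as examples, Slc7a11, Nupr1, Chac1 and Vldlr for their large differences between arrays, Got1, Pck2 and Atf3 for a called difference between lines, and Asns as a well-studied target. They are given 5′ to 3′ along the gene's strand in build GRCm38.p6, with the core in capitals.

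Slc7a11 (chr3:50443614-50443739, minus strand): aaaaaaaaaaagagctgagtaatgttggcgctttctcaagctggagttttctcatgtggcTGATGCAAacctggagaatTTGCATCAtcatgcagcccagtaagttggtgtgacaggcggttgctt
Nupr1 (chr7:126625513-126625640, minus strand): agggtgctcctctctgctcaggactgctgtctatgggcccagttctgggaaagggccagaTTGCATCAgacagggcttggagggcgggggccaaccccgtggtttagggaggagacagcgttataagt
Chac1 (chr2:119350992-119351116, plus strand): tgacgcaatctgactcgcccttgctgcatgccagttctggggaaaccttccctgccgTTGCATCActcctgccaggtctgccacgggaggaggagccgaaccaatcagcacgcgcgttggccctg
Atf3 (chr1:191183376-191183503, minus strand): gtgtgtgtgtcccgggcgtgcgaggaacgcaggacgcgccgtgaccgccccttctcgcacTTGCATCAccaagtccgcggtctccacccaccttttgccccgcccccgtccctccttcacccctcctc
Asns (chr6:7693210-7693292, minus strand): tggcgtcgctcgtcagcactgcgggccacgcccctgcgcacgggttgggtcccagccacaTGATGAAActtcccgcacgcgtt
Got1 (chr19:43524640-43524767, minus strand): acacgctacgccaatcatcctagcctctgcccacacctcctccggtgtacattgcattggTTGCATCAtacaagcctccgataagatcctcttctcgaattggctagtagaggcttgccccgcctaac
Pck2 (chr14:55540103-55540230, plus strand): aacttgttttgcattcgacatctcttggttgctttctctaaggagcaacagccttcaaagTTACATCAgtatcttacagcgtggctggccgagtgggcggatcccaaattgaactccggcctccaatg
Vldlr (chr19:27216770-27216887, plus strand): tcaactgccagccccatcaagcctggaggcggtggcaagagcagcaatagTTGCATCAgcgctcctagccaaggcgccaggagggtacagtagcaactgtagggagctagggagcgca

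The core read TTGCATCA or its reverse in 12 of the 16 members. Slc7a11 held 2 copies on opposite strands, starting 66 and 47 bases before the start. In Asns, the gene of asparagine synthetase, the match lay 23 bases before the start. The match of Got1 began 102, that of Pck2 103 and those of Nupr1 and Atf3 110 bases before the start. Chac1 and Vldlr carried theirs 193 and 200 bases before it. The windows hold only the searched bases, and no binding was measured.

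**Figure D1:**
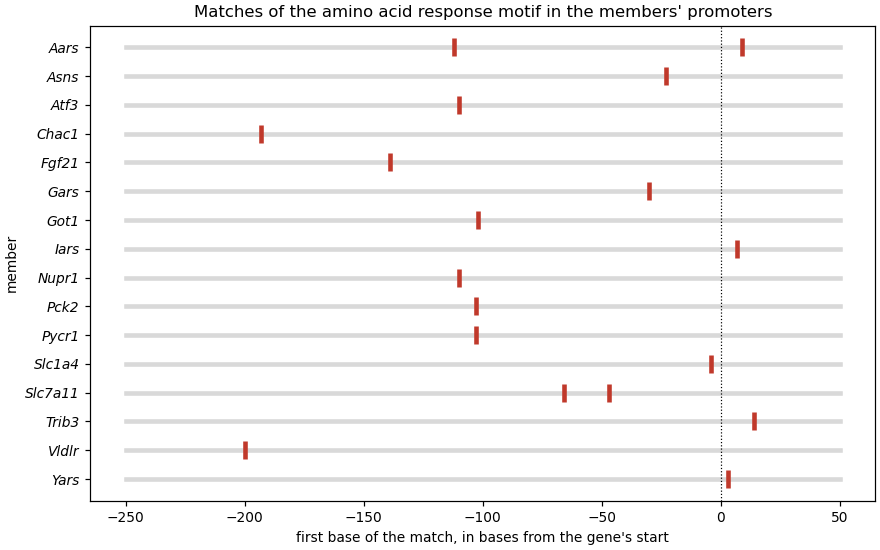
Position of each match of the core TGATGNAA on either strand in the promoters of 16 members. The horizontal axis gives the first base of the match in bases from the gene's start (dotted line), grey bars span the searched sequence, and each red mark is a match; Slc7a11 and Aars hold 2, and Chac1 and Vldlr hold theirs farthest from the start.

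Most members could be read in every line. Of the 44 genes 42 were well above background on every array of each melanoma line, 39 on every array of M0 and of J365, and 38 on all 24 arrays. Fgf21, a hormone that ATF4 induces in liver and other tissues, was read on no melanoma array and on all 7 myeloid arrays. Atf3, Chac1 and Aldh1l2 showed the reverse, on all 17 melanoma arrays and on no myeloid array. Stc2, a secreted glycoprotein, was read on D replicate 3 alone, at -1.20 compared with -6.90 to -5.48 on the other D arrays. That array had 89.9% of its probes well above background, compared with at most 53.8% on any other array. Stc2 was not tested in any comparison.

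The spread between arrays of the same melanoma line was large for these genes. Trib3, the pseudokinase that restrains ATF4, read 6.32 on D replicate 1 and 3.84, 3.15 and 3.42 on D replicates 2, 3 and 4. It read 5.25 on DB#1 replicate 1, above 3.55 to 3.77 on the other arrays of that line. In DB#2 the corresponding values were 4.72 on replicate 1 and 3.51 and 3.56 on the others, and in DB#3 5.09 on replicate 3 and 3.31 on replicates 4 and 5. In M the gap was narrower, with 5.02 on replicate 1, 4.51 on replicate 2 and 4.58 on replicate 3. In each of the 5 lines the highest Trib3 value thus lay on the array with the lowest replicate number.

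The same arrays were highest for most other members. Slc7a11, the cystine importer of system xc-, read 0.77, 2.09, 1.96, 1.13 and 1.76 on the lowest-numbered arrays of M, D, DB#1, DB#2 and DB#3, and -1.41 to 0.05 on the other 12 melanoma arrays. It was the member with the largest mean gap, 2.13 on the log2 scale over the 5 lines. Nupr1, a stress-induced chromatin protein, read 3.92 on D replicate 1 and 0.73, 0.45 and 0.19 on the other D arrays. For Aldh1l2, the mitochondrial 10-formyltetrahydrofolate dehydrogenase, D replicate 1 read 1.81 and the other D arrays -1.30 to -0.85. The gap of Nupr1 averaged 1.53 over the lines, that of Trib3 1.59 and that of Aldh1l2 1.40. These are gaps between single arrays and carry no test.

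Asns itself read 6.86, 7.31, 7.02, 6.76 and 7.13 on the lowest-numbered arrays in the same order of lines and 5.92 to 6.52 on the others, with no overlap. Its mean gap was 0.71. Atf4 read 8.01 to 8.25 on these 5 arrays and 7.26 to 7.92 on the other melanoma arrays, with a mean gap of 0.47. The mean gaps of the tRNA charging genes ran from 0.23 for Wars to 0.62 for the tRNA export receptor Xpot, and 8 of these 10 genes were highest on the lowest-numbered array in all 5 lines.

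**Figure D2:**
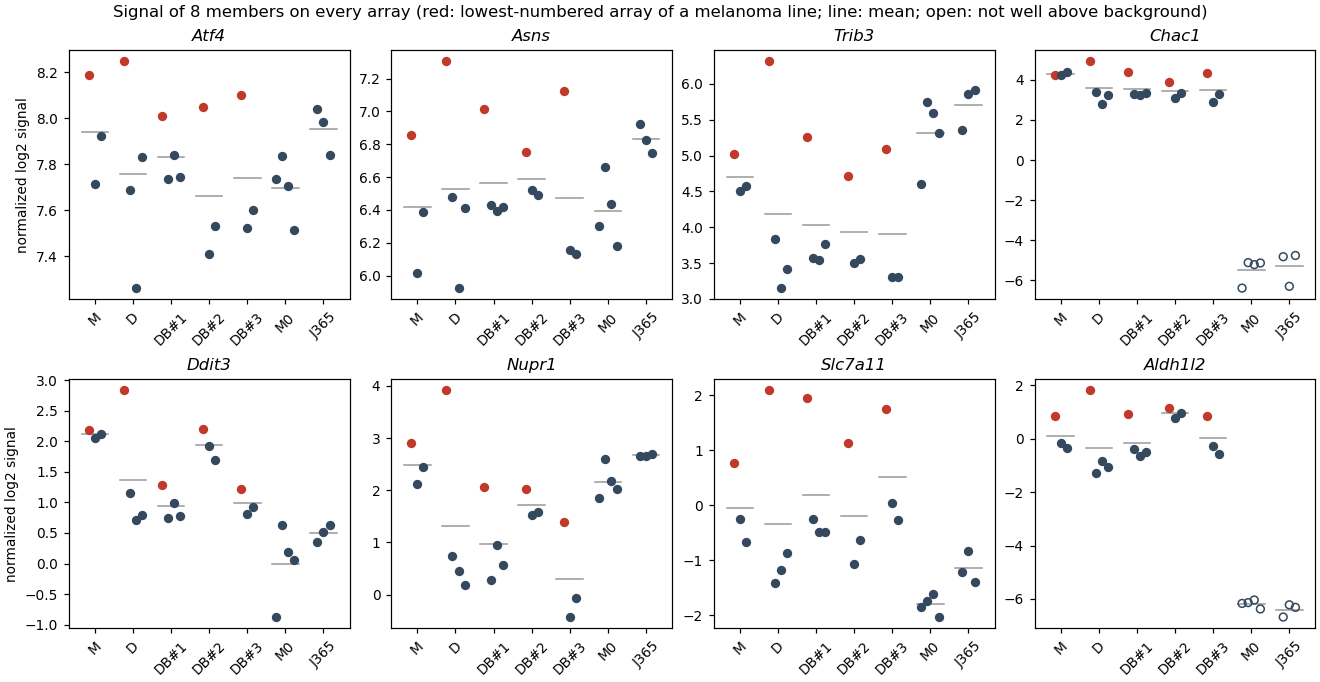
Normalized log2 signal of 8 members on each of the 24 arrays, by line; red points are the lowest-numbered arrays of the melanoma lines, grey lines are line means, and open points mark lines in which the gene was well above background on no array. Slc7a11 and Asns have every red point above the other melanoma arrays, and Chac1 and Aldh1l2 lie at -6.67 to -4.75 in the myeloid lines.

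Over the 42 members read on all 17 melanoma arrays, 28 were highest on the lowest-numbered array in all 5 lines, 66.7% compared with 5.47% (972) of 17769 genes read there. By line, 34 members were highest on M replicate 1, 39 on D replicate 1, 35 on DB#1 replicate 1, 33 on DB#2 replicate 1 and 39 on DB#3 replicate 3. The corresponding shares of all detected genes were 35.9%, 43.8%, 23.0%, 37.8% and 30.7%. The median member lay 0.40, 0.90, 0.41, 0.29 and 0.53 above the median of the other arrays of its line, where the median of all detected genes lay at 0.05, 0.14, -0.02, 0.05 and -0.00. Slc38a2, a neutral amino acid transporter, was the 1 member that was highest on none of the 5 arrays.

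The arrays concerned were on slides 3, 1, 2, 2 and 3, and each slide also held other arrays of melanoma lines. The lists of neighbouring stress genes differed in their shift. The median of 20 ER chaperones and other targets of XBP1 or ATF6, the neighbouring branch of the stress response, lay at -0.37, -0.00, -0.23, -0.04 and -0.14 on the same 5 arrays, and 0 of the 20 were highest on all of them. Of 9 NRF2 targets, genes of the oxidative stress response, also 0 were highest on all 5, with a median mean gap of 0.27 compared with 0.55 for the members. On D replicate 1 the median NRF2 target stood at 0.89, as far up as the median member, and at -0.03, 0.21, 0.27 and 0.11 on the other 4. Of 26 other amino acid stress genes and ATF4 partners 7 were highest on all 5 arrays. The median of the other cytosolic tRNA synthetases lay at 0.19, 0.59, 0.02, 0.23 and 0.10. The mean level of the melanocyte markers was also highest on the lowest-numbered array in 4 of the 5 lines, for example 6.72 compared with 5.53 to 6.06 in D and 6.59 compared with 6.22 and 6.24 in DB#2, and lowest there in DB#1. Its part in the pattern was not tested. In M0 the largest median deviation, 0.30, lay on replicate 1, where all genes stood at 0.14, and in J365 on the array without a number, at 0.14. The 14 members with a promoter match had a median mean gap of 0.64 and the 21 with a promoter sequence but no match 0.55. By count the order was reversed, with 8 of the 14 and 15 of the 21 highest on all 5 arrays.

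The pattern was noticed after the values had been seen, and the replicate number is all that the labels give for these arrays. Its relation to culture, extraction or labelling was not tested. Under quantile normalization 26 members were highest on all 5 arrays, with normexp background correction 27, with an array percentile taken among detected probes only 24, and without scaling 29. The median within-line SD of the 42 members was 0.42 compared with 0.26 for all genes, while their line means differed by an SD of 0.12 compared with 0.16. For 38 of the 42 members the spread within lines was larger than the spread of the 5 line means, as it was for 80.8% of all genes. A mean over several arrays varies less than a single array. The spread within lines is therefore expected to be the larger one even where lines do not differ, and no conclusion is drawn from it.

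**Figure D3:**
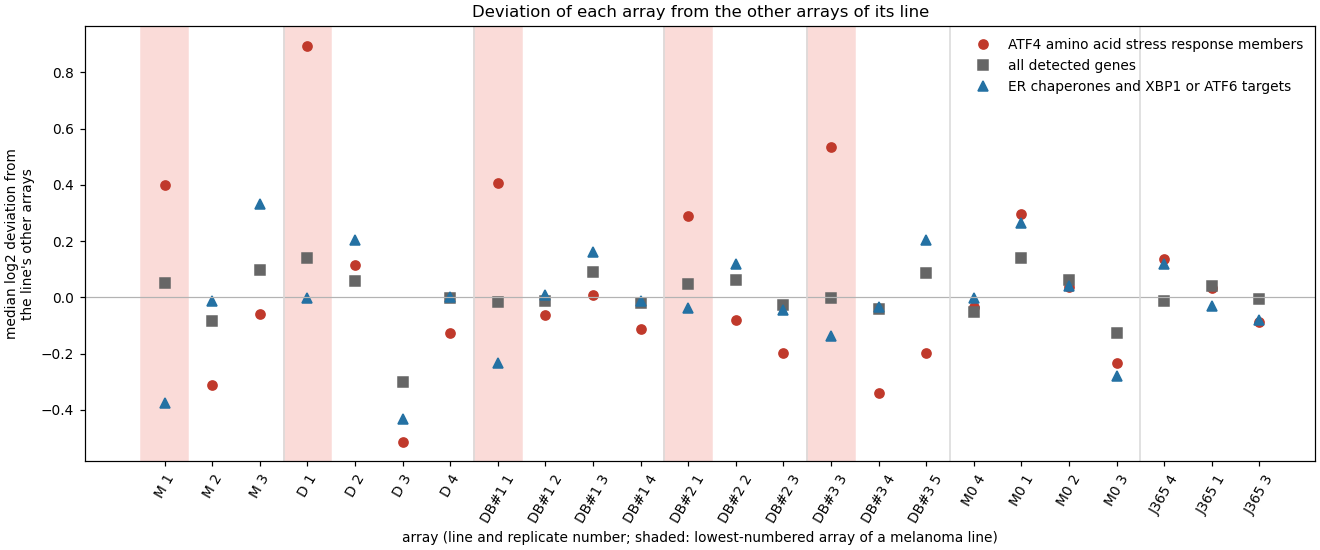
Median log2 deviation of each array from the other arrays of its line, for the members (red circles), all detected genes (grey squares) and the ER chaperone list (blue triangles); shaded columns are the lowest-numbered arrays of the melanoma lines. The members stand at 0.29 to 0.90 in the shaded columns, above both other groups in each.

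D was compared with M to ask whether a dormant melanoma line differs from its parent in this response. Of the 42 members tested with limma, 0 were called at an adjusted p under 0.05, and 0 had an unadjusted p under 0.05, while 2.97% of all 20145 genes were called. The members' median difference was -0.00 (all genes -0.01), with 20 members above 0 and 22 below. This balance depended on single arrays, as without D replicate 1 the median was -0.24 with 6 members above 0, and without D replicate 3 it was 0.11 with 28 above 0. With slide as a block 0 members were called as well and 1 had an unadjusted p under 0.05. Asns differed by 0.11 ± 0.28 (SE), with a mean of 6.42 ± 0.42 in the parental line (SD, n = 3) and of 6.53 ± 0.57 in D (SD, n = 4). The study names Asns, Shmt2, Pck2 and Aldh18a1 in its leukemia model and Yars in its melanoma model. In D against M the serine hydroxymethyltransferase Shmt2 differed by -0.09 ± 0.20 (0.52 by its other probe) and the mitochondrial phosphoenolpyruvate carboxykinase Pck2 by -0.44 ± 0.30. The tyrosyl-tRNA synthetase Yars differed by 0.01 ± 0.15 (0.26 by its other probe) and the proline pathway enzyme Aldh18a1 by 0.06 ± 0.22.

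The transcription factors gave the largest values below 0. Ddit3 read 2.18, 2.05 and 2.11 in M, and 2.84, 1.15, 0.70 and 0.79 in D, so that 3 of 4 D arrays lay below M and replicate 1 above it. Its difference was -0.75 ± 0.38 (SE; limma, adjusted p 0.47). Nupr1 read 2.90, 2.11 and 2.45 in M and 3.92, 0.73, 0.45 and 0.19 in D, with a difference of -1.16 ± 0.64 (adjusted p 0.541). D replicate 1 decided both values. Without it Ddit3 differed by -1.23 (adjusted p 0.00844) and Nupr1 by -2.03 (adjusted p 0.00564), and both were called. Every replicate was left out in turn, but D replicate 1 is singled out for its high values. The p-values and calls without it, here and below, therefore do not have their usual meaning. The share of all genes called without it is not given.

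When the lowest-numbered array of each melanoma line was left out, an alternative chosen after the data had been seen and because of these values, 3 of 42 members were called in D against M, all lower (all genes 2.81%). They were Nupr1 at -1.82 ± 0.24 (SE, adjusted p 0.000381), Ddit3 at -1.20 ± 0.31 (adjusted p 0.0493) and Aldh1l2 at -0.82 ± 0.19 (adjusted p 0.0265). Trib3 was at -1.07 ± 0.29 (adjusted p 0.0656) and Chac1, a glutathione-degrading enzyme, at -1.15 ± 0.43 (adjusted p 0.237). Leaving out the arrays with the high values narrows the spread. The p-values and calls from this alternative, here and below, therefore do not have their usual meaning. The median member then stood at -0.14 and the median gene at 0.01.

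The DB lines were each set against the same M arrays, which these comparisons therefore share. In DB#1 0 of 42 members were called (3.69% of 20708 genes), and 4 had an unadjusted p under 0.05. They were Nupr1 at -1.52 ± 0.64, Ddit3 at -1.17 ± 0.38, the phosphoserine aminotransferase Psat1 at 0.34 ± 0.16 and Vldlr at 2.67 ± 0.79 (SE). Vldlr, the very low density lipoprotein receptor, read 0.29, -1.41, -1.28 and -1.15 in DB#1 and -3.00, -3.70 and -3.96 in M. All DB#1 arrays lay above all M arrays, yet the adjusted p was 0.0703 with limma and 0.066 with slide as a block. It was called with normexp values (1.42, adjusted p 0.00886), with only the arrays of DB#1 and M and with the replicate block. Without the lowest-numbered arrays Nupr1 (-1.68, adjusted p 0.000568) and Ddit3 (-1.24, adjusted p 0.0355) were called in DB#1 (all genes 3.16%). These 2 p-values carry the limit given above for that alternative.

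In DB#2 against M 1 of 42 members was called (3.44% of 20951 genes). Got1, the cytosolic aspartate aminotransferase, read 6.25, 6.04 and 6.02 in DB#2 and 5.28, 4.82 and 4.94 in M, with no overlap. It was higher by 1.09 ± 0.25 on the log2 scale (2.13-fold; limma, adjusted p 0.0121), and its other probe gave 1.24. The difference was 1.10, 1.43 and 0.74 within slides 1, 2 and 3 and was called in all alternatives that kept every array. It was no longer called without M replicate 2 (0.99, adjusted p 0.0799), M replicate 3 (1.06, 0.0578) or DB#2 replicate 1 (1.02, 0.0692). Cebpb, a C/EBP partner of ATF4, was at -1.01 ± 0.45 (adjusted p 0.362). Without the lowest-numbered arrays 3 members were called (all genes 2.27%), Got1 (1.15), Aldh1l2 (1.11) and Cebpb (-1.05). Aldh1l2 read 1.14, 0.75 and 0.95 in DB#2 and differed from M by 0.83 ± 0.59 (adjusted p 0.725).

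Got1 was also the 1 member called in DB#2 against D (6.34% of 20651 genes), at 0.87 ± 0.23 (SE, 1.83-fold, adjusted p 0.0258, limma). D read 6.05, 5.10, 4.68 and 5.11, so replicate 1 reached into the range of DB#2. This call rested on single arrays. It was lost without any of D replicates 2, 3 and 4 or of the 3 DB#2 arrays (0.68 to 0.91), with only the arrays of both lines and without the filter on dim probes. Without D replicate 1 it was 1.14 (adjusted p 0.000278), and Aldh1l2 (2.02), Ddit3 (1.06) and Atf3 (1.00) were called as well. Without the lowest-numbered arrays 4 members were called (all genes 5.18%), Got1 (1.07), Aldh1l2 (1.92), Nupr1 (1.09) and Atf3 (1.02), all higher in DB#2.

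In DB#3 against M 1 of 42 members was called (2.76% of 20581 genes). Ddit4, also known as REDD1, an inhibitor of mTORC1 signalling, read 2.36, 1.44 and 1.64 in DB#3 and 2.88, 3.30 and 3.46 in M. The lines did not overlap, and Ddit4 differed by -1.40 ± 0.35 on the log2 scale (SE, 2.64-fold lower; adjusted p 0.0299, limma). Within slides it was -1.82, -1.86 and -0.52. It was not called without M replicate 2 (-1.36) or 3 (-1.28) or without DB#3 replicate 4 (-1.21) or 5 (-1.31), with the replicate block (-1.08), with only the arrays of both lines or without the filter. Against D, Ddit4 was at -1.32 ± 0.33 with an adjusted p of 0.126, and 0 of 42 members were called (0.369% of 20033 genes), with 1 unadjusted p under 0.05, that of Ddit4. With slide as a block it was -1.27 with an adjusted p of 0.0487. Nupr1 was at -2.19 ± 0.68 against M (adjusted p 0.118) and, without the lowest-numbered arrays, at -2.52 (adjusted p 3.08e-05, all genes 1.98%). The last p-value carries the limit given above for that alternative.

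DB#1 against D called 0 of 42 members (0.475% of 20203 genes), with a median of 0.06 (all genes 0.05) and 1 unadjusted p under 0.05, that of Vldlr at 2.04 ± 0.73. Over the 7 comparisons among melanoma lines the median member lay between -0.04 and 0.06. Without D replicate 1 it was 0.29 in DB#1 against D, with 41 of 42 members above 0, 0.29 in DB#2 against D and 0.21 in DB#3 against D. Without D replicate 3 these medians were -0.13, -0.14 and -0.17. With the replicate block the median was 0.29 in DB#3 against M (36 members above 0) and 0.20 in DB#3 against D. Without M replicate 1 the medians against M were 0.10 in D, 0.15 in DB#1, 0.13 in DB#2 and 0.14 in DB#3, and without the lowest-numbered array of the DB line -0.09, -0.15 and -0.18 in DB#1, DB#2 and DB#3. In the full fit the serine and one-carbon enzymes other than Aldh1l2 and the tRNA charging genes lay between -0.32 and 0.40. Asns lay between -0.06 and 0.17, Aldh18a1 between -0.10 and 0.24 and Pck2 between -0.45 and 0.21. Shmt2 lay between -0.09 and 0.40 (its other probe between -0.68 and 0.52) and Yars between -0.04 and 0.12 (its other probe between -0.47 and 0.26). The SE of a member's difference had a median of 0.26 to 0.30 in these comparisons, and the number of arrays limits the precision.

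**Figure D4:**
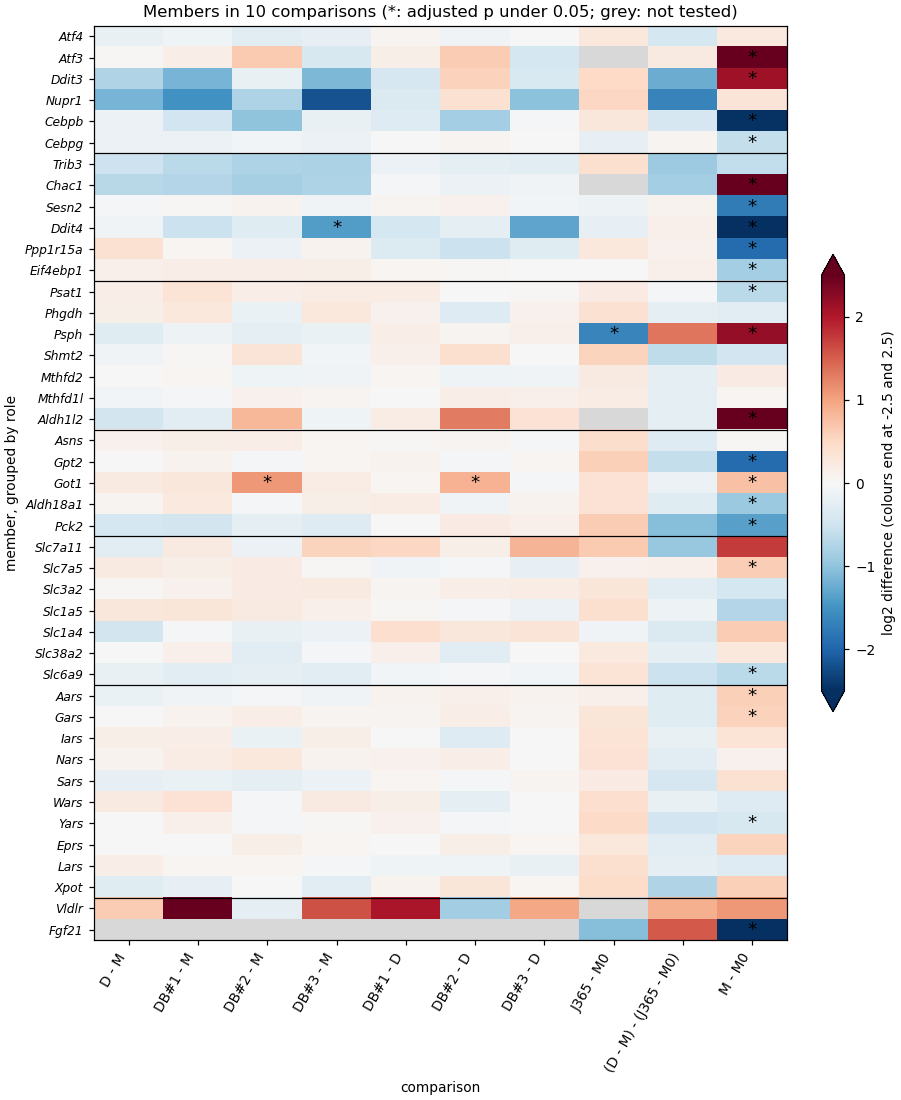
Log2 differences of 43 tested members (rows, grouped by role) in the 10 comparisons (columns), from blue (lower in the first-named line) to red (higher); colours end at -2.5 and 2.5, stars mark an adjusted p under 0.05 with limma, and grey marks untested genes. Among melanoma lines stars appear for Got1 in 2 comparisons and Ddit4 in 1, and the J365 minus M0 column is mostly pale red with 1 star for Psph.

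J365 was compared with M0 as the pair of myeloid lines. Of 39 members tested 1 was called (1.47% of 20660 genes). Psph, the phosphatase of the last step of serine synthesis, read 2.22, 2.03, 1.91 and 1.67 in M0 and 0.64, 0.26 and 0.05 in J365. It differed by -1.64 ± 0.29 on the log2 scale (SE, 3.12-fold lower in J365; adjusted p 0.00211, limma), and -1.63 with slide as a block. Within slides it was -1.98, -1.31 and -1.65. Psph was called under each of the 16 alternatives run for this comparison, from -1.81 to -1.49. The other steps of serine synthesis did not move with it, since Phgdh was at 0.38 ± 0.20 and Psat1 at 0.21 ± 0.16 (SE), neither called.

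Most other members read somewhat higher in J365, none of them past the threshold. In all 32 of 39 members were above 0 (82.1%, compared with 52.4% of all genes tested), with a median of 0.31 (all genes 0.02). The 10 tRNA charging genes were all above 0, from 0.12 for Aars to 0.48 for Yars, and so were the 5 other amino acid enzymes, from 0.36 for Aldh18a1 to 0.63 for Pck2. Yars read 4.26, 4.16 and 4.01 in J365 and 3.44 to 3.84 in M0, a difference of 0.48 ± 0.15 (SE, adjusted p 0.191). Pck2 read 4.87, 4.87 and 4.78 compared with 3.83 to 4.52 (0.63 ± 0.30, adjusted p 0.584), and Shmt2 5.53, 5.17 and 5.21 compared with 4.42 to 5.06 (0.56 ± 0.20, adjusted p 0.303). Asns read 6.92, 6.83 and 6.75 compared with 6.18 to 6.66 (0.44 ± 0.28, adjusted p 0.81). These 4 genes did not overlap between the lines by their brightest probe. Their other probes gave differences of 0.82 for Asns, 0.36 for Pck2, 0.62 for Shmt2 and 0.51 for Yars. In dormant cells of its leukemia model the study reports significantly increased RNA of Asns and Shmt2. It also lists Pck2 with both among its mutated genes of strongest expression relative to parental cells. None of these was called here, and the labels do not tie J365 to a named leukemia line. In all, every J365 array lay above every M0 array for 12 of 39 members (30.8%), compared with 5.42% of all genes tested. Over the 16 alternatives 31 to 35 members were above 0, where 39 were tested, or 33 of 44 without the filter. Yars was called after quantile normalization (0.38) and when the scaling percentile came from detected probes only (0.40).

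The feedback and stress regulators were divided, none of them called. Trib3 was at 0.39 ± 0.62 (SE) and Ppp1r15a at 0.27 ± 0.43. Sesn2, a sensor of leucine, was at -0.13 ± 0.27, Ddit4 at -0.21 ± 0.33 and Eif4ebp1, the translation repressor 4E-BP1, at -0.00 ± 0.32. Fgf21 read -4.01, -1.96, -1.31 and -1.57 in M0 and -3.94, -2.58 and -3.30 in J365, a difference of -1.06 ± 0.45 (SE, adjusted p 0.451). The low M0 array was the one without a number in its label. Without it Fgf21 was at -1.66 and was called (adjusted p 0.00242). The same M0 array was lowest of its line for Trib3 (4.60 compared with 5.31 to 5.75), Ddit4 (6.27 compared with 7.23 to 7.73), Ddit3 (-0.88 compared with 0.06 to 0.63) and Ppp1r15a (3.29 compared with 4.31 to 4.61). The J365 array without a number was likewise lowest of its line for Fgf21, Trib3 (5.36 compared with 5.86 and 5.91), Ddit4 (6.32 compared with 7.24 and 7.38), Ddit3 (0.35 compared with 0.51 and 0.63) and Ppp1r15a (3.63 compared with 4.83 and 4.87). Both arrays lay on slide 2, which also held M0 replicate 3. They were not low for the members as a whole. Of 39 members the M0 array was lowest for 12 and highest for 11 (all genes 32.5% and 25.0%). The J365 array was lowest for 14 and highest for 22 (all genes 35.0% and 30.0%).

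The difference between models, D minus M less J365 minus M0, was called for 0 of 43 members (2.08% of 23120 genes), and 7 had an unadjusted p under 0.05. Their median was -0.26 (all genes -0.00), with 10 of 43 above 0 (all genes 49.6%). The 43 include Atf3, Chac1, Aldh1l2 and Fgf21, each read in only 1 of the models. The median rested on single arrays, since it was -0.49 without D replicate 1, -0.10 without D replicate 3, -0.11 without M replicate 1 and -0.09 with the replicate block. Nupr1 was at -1.67 ± 0.91, Ddit3 at -1.25 ± 0.54 and Psph at 1.35 ± 0.41 (SE, adjusted p 0.119). Psph was called with quantile normalization (1.44), with the percentile of detected probes (1.45) and with the replicate block (1.60). Without D replicate 1, Ddit3 (-1.73), Nupr1 (-2.53) and Pck2 (-1.37) were called.

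M and M0, the parental melanoma line and a myeloid line, were compared to show how far the setting of these genes differs between the cell types. Here 22 of 43 members were called, 9 higher and 13 lower in M, a share of 51.2% when 58.5% of 22426 genes were called, 27.7% higher and 30.8% lower. The median member stood at 0.04 and the median gene at -0.13. All 22 kept their direction within each of the 3 slides. Unscaled values called 12 members as higher and 9 as lower, and the median gene then stood at 0.01. These lines differ in origin, and their media cannot be told apart from their cell type.

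Chac1 read 4.23, 4.21 and 4.39 in M and was well above background on no M0 array, which makes it at least 330-fold higher in M. This bound sets the M mean against the lowest readable signal of each M0 array, or the probe's own signal where that was higher. On the same terms Aldh1l2 was at least 18.4-fold and Atf3, a partner and antagonist of ATF4, at least 13.0-fold higher in M (adjusted p of 3.98e-09 and 5.32e-13, limma). Psph was higher by 2.21 ± 0.29 (adjusted p 1.28e-06) and Ddit3 by 2.12 ± 0.38 (adjusted p 6.9e-05), with no overlap in either gene. Got1 (0.74 ± 0.23, adjusted p 0.00954) followed as the sixth of the 9 called members that were higher. Slc7a11 (1.75 ± 0.75, adjusted p 0.0515) and Vldlr (1.08 ± 0.79) had larger differences and did not pass the test.

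Fgf21 was read in M0 and on no M array, at least 4.23-fold lower in M. Ddit4 read 2.88 to 3.46 in M and 6.27 to 7.73 in M0, a difference of -3.97 ± 0.33 (SE, 15.7-fold, adjusted p 1.57e-09). Cebpb followed at -2.47 ± 0.43, then Ppp1r15a (GADD34), the subunit that directs dephosphorylation of eIF2, at -1.93 ± 0.43, the alanine aminotransferase Gpt2 at -1.92 ± 0.33 and Sesn2 at -1.74 ± 0.27. By role, 4 of 6 feedback and stress regulators were lower and Chac1 was higher, while of 10 tRNA charging genes Aars and Gars were higher and Yars lower. Yars was at -0.40, and its other probe gave -0.11. Asns did not pass the test, at 0.03 ± 0.28, and neither did Shmt2 (-0.47 ± 0.20, adjusted p 0.0532), whose other probe gave 0.10. With slide as a block 26 members were called, the 22 and Shmt2 (-0.49, adjusted p 0.037), Slc1a4 (0.71), Slc1a5 (-0.75) and Xpot (0.63). The share of all genes called in that fit is not given. Pck2 (-1.36) and Aldh18a1 (-0.93) were lower. The other probe gave -0.75 for Pck2 and -1.42 for Gpt2. Of the 22 calls, 13 were kept under all 17 alternatives; Yars was called under 9, Aars and Gars under 11 and Eif4ebp1 under 12. The probes of Cebpg differed in sign (-0.59 and 0.05).

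**Figure D5:**
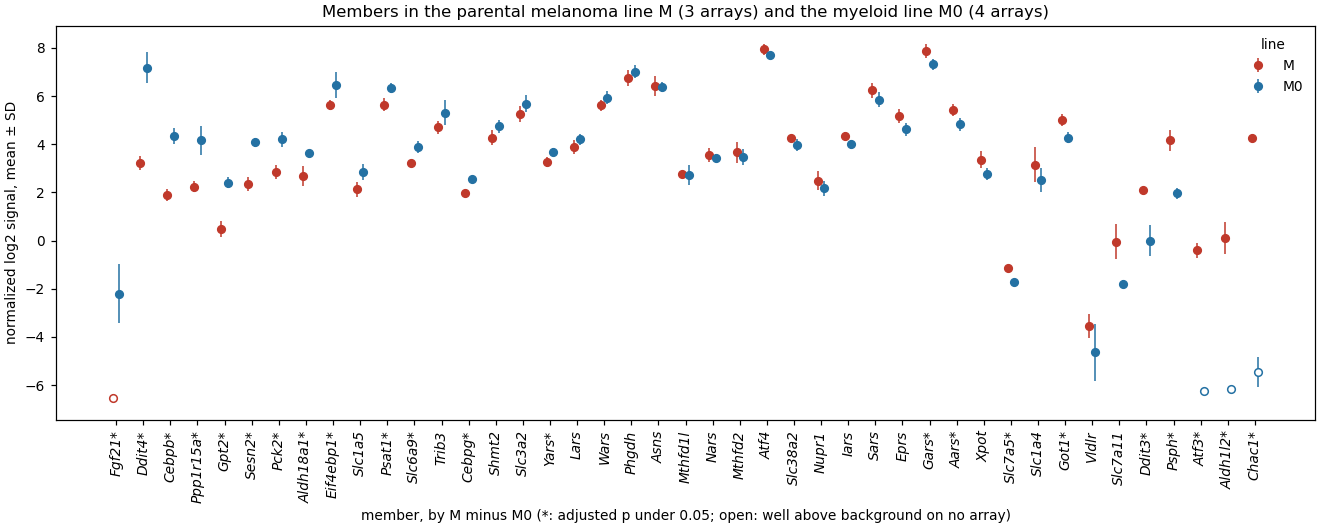
Mean normalized log2 signal ± SD of 43 members in M (red, 3 arrays) and M0 (blue, 4 arrays), ordered by the difference; stars mark an adjusted p under 0.05 and open points lines without a reading above background. Fgf21 and Ddit4 stand at the left with higher M0 values, and Atf3, Aldh1l2 and Chac1 at the right with M0 below background.

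Other genes of the pathway were examined as 7 further lists with 121 genes, 120 of them on the array. They are the eIF2 kinases and factors, ER chaperones, the other cytosolic and the mitochondrial tRNA synthetases, other amino acid transporters, NRF2 targets, and other partners and amino acid enzymes. In D against M 5 of 112 tested were called (4.46% compared with 2.97% of all genes). The amino acid transporters Slc43a1 and Slc36a4 rose by 1.43 ± 0.25 (SE, adjusted p 0.00137, limma) and 1.38 ± 0.21 (adjusted p 0.000382). Glutamine synthetase, Glul, fell by 0.80 ± 0.16 on the log2 scale, from 3.76 ± 0.12 (SD, n = 3) to 2.96 ± 0.30 (n = 4). The other two, the growth regulator Sesn1 (-0.69) and the ER chaperone Hsp90b1 (-0.54), are named outside the naming rule, after their values were seen, as are Slc43a1 in DB#1, Gpt in DB#3 against M and Herpud1 in what follows.

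Slc36a4 was also higher than in M in DB#1 (1.60), DB#2 (0.84) and DB#3 (1.79), and Slc43a1 in DB#1 (1.32) and DB#3 (1.40) and was lower in DB#2 than in D (-1.41). The cytosolic alanine aminotransferase Gpt, whose mitochondrial relative Gpt2 is a member, read 1.62 ± 0.12 in M (SD, n = 3), 1.58 ± 0.30 in D (n = 4), 2.95 ± 0.05 in DB#1 (n = 4), 1.56 ± 0.20 in DB#2 (n = 3) and 2.75 ± 0.19 in DB#3 (n = 3). It rose in DB#1 by 1.33 and in DB#3 by 1.13 relative to M, and by 1.37 and 1.17 relative to D, with adjusted p of 9.22e-06 to 0.000446 (limma). Gpt2 was at 0.09 and 0.05 against M, and at -0.27 and -0.03 by its other probe. In DB#1, 5 of 113 listed genes were called against M (4.42% compared with 3.69% of all genes), in DB#2 4 of 113 (3.54% compared with 3.44%) and in DB#3 4 of 112 (3.57% compared with 2.76%).

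Gdf15, a secreted stress cytokine, was well above background on no M array and on all arrays of DB#1 and DB#2, higher by at least 1.27 and 1.63 on the log2 scale. Cbs, the first enzyme of transsulfuration, was lower in DB#2 (-1.05 against M and -1.68 against D) and higher in DB#3 against M (1.15). The transporter Slc7a8 was lower in DB#2 than in D (-1.61). DB#2 and D differed at 7 of 114 listed genes (6.14% compared with 6.34% of all genes), DB#1 and D at 1 of 112, Gpt (0.893% compared with 0.475%), and DB#3 and D at 2 of 112 (1.79% compared with 0.369%), Gpt and the NRF2 target Nqo1, which was at least 1.80-fold lower in DB#3. Nqo1 was low and uneven in D (-3.44 ± 1.25, SD, n = 4), and with slide as a block 0 of 10 NRF2 targets were called there.

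In J365 against M0 2 of 108 listed genes were called (1.85% compared with 1.47% of all genes). Cth, cystathionine gamma-lyase, which makes cysteine from cystathionine, was read on every J365 array at -0.63 ± 0.53 (SD, n = 3) and on no M0 array, at least 11.0-fold higher in J365. Gdf15 was lower in J365 (-2.43 ± 0.53 SE, adjusted p 0.0172), from -0.75 ± 0.07 (SD, n = 4) in M0 to -3.18 ± 0.56 (n = 3). Cth, Gdf15 and Slc36a4 were also called in the difference between models, but Cth was read on no M0 array, Gdf15 on no M array and Slc36a4 on no myeloid array, so that no size can be given. The ER protein Herpud1 was called there at -1.19 (4 of 113 listed genes in all, 3.54% compared with 2.08% of all genes). M against M0 called 72 of 113 listed genes (63.7% compared with 58.5% of all genes), 49 higher and 23 lower in M (all genes 27.7% and 30.8%). The largest were the branched-chain aminotransferase Bcat1 (at least 293-fold), Sesn3 (at least 34.6-fold) and Cth (at least 23.2-fold higher in M). Of 20 ER chaperones 15 were higher in M, with a median of 1.28.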

How the data were processed

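RNA of 24 samples was labelled with cyanine 3 and read on single-colour Agilent mouse arrays, 8 to a slide on 3 slides. The authors deposited each array's processed intensity from Agilent Feature Extraction 10.7.3.1 with its background-corrected signal, and per the methods they ran their statistics in Genespring; no test is named. The deposited intensity values were left without normalization between arrays, and the table of the whole series holds the same values.

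Control spots and probes with an outlier flag (117 of 56605 probes) were left out, spots of a probe averaged, and log2 values reduced by the 75th percentile of the array. Genes were named through RefSeq transcripts of GRCm38.p6, with the brightest probe standing for a gene. A gene was tested where its probe was well above background on every array of at least 1 line compared. All 24 arrays entered a limma 3.58.1 fit (R 4.3.3) with a term per line and 17 residual degrees of freedom, and p-values were adjusted by Benjamini-Hochberg over all genes of a comparison, with calls at 0.05. A gene that a line read on no array has only a bound. The fit was tested on simulated data. Summaries used Python 3.11.15, pandas 2.3.3 and numpy 2.4.6.

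Alternatives were quantile normalization, normexp correction (offset 50) on median signals, since mean signals are not in the files, the 75th percentile over detected probes, no scaling, no filter, only the arrays of the lines compared, slide or replicate number as a block, the mean over probes, and leaving out each replicate. Leaving out the lowest-numbered melanoma arrays was added after seeing the data. The members and lists were chosen with earlier results of these data known. Named were all members, and of the other lists the 3 largest called differences per comparison, with exceptions marked. Arrays without a number in their label are called replicate 4 of their line.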

Additional observations from a re-analysis of the deposited data

Results flagged for a closer look

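In lines with 4 arrays, 17 of 123 pairs of line and member had an array whose gap to the nearest other array took more of the line's range than Dixon's critical value, which chance passes in about 1 of 20 groups. That rate holds for independent groups, and the members share their arrays, so the 123 pairs are not independent. The share of all genes past this value is not given, so the count is not read as an excess of the members. On D replicate 1, which read highest, this share was 0.948 for Cebpb (3.34 compared with 1.23 on the next array), 0.855 for Aldh1l2, 0.855 for Nupr1 and 0.843 for Slc7a11. On DB#1 replicate 1 it was 0.945 for Ddit4, 0.941 for Asns, 0.928 for Cebpg, 0.909 for Chac1, 0.898 for Slc7a11, 0.870 for Trib3, 0.856 for Lars, 0.847 for Vldlr, 0.843 for Aldh1l2 and 0.834 for Gpt2, all highest there. These 14 gaps lie on lowest-numbered arrays. The Ddit4 gap was small in size, 2.75 compared with 2.66.

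Slc1a4, a neutral amino acid transporter, was lowest on DB#1 replicate 3 (2.21 compared with 3.36, a share of 0.922). The M0 array without a number was highest for Cebpg (2.66 compared with 2.56, 0.863) and Xpot (3.15 compared with 2.69, 0.839).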

How the results depend on the processing

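The calls among melanoma lines were few and several rested on single arrays. With quantile normalization the members called numbered 3 in DB#2 against D, 1 in DB#3 against D, 2 in J365 against M0 and 1 in the difference between models. With the percentile of detected probes they numbered 1 in DB#1 against M, 2 in DB#2 against D, 1 in DB#3 against D, 2 in J365 against M0 and 1 in the difference between models. Normexp values called 1 in DB#1 against M, unscaled values 1 in DB#3 against D, and slide as a block 1 in DB#3 against D. Without the filter 0 were called in DB#3 against M and 0 in DB#2 against D. With only the arrays compared, 2 were called in DB#1 against M and 0 in DB#2 against D. Without the lowest-numbered arrays the counts were 3 in D, 2 in DB#1, 3 in DB#2 and 2 in DB#3 against M, 4 in DB#2 against D and 4 in the difference between models (all genes 2.13% there). The shares of all genes called under the other settings, or without single replicates, are not given. These counts alone therefore do not set the members apart from other genes. The causes were not tested.

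Leaving out each replicate in turn gave 0 to 2 calls in D against M, 0 in DB#1, 0 to 1 in DB#2 and in DB#3 against M, 0 in DB#1, 0 to 4 in DB#2 and 0 in DB#3 against D, 1 to 2 in J365 against M0, 19 to 23 in M against M0 and 0 to 3 in the difference between models. Without the M0 array that has no number, Fgf21 was the added call in J365 against M0 and 1 member was called in the difference between models.

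Replicate numbers did not pair the arrays. Same-numbered arrays of a model had a mean correlation of deviations of 0.060 over 27 pairs, 13 of them over 0.1, and 3 of 20 arrays were closest to their own number; D and M had -0.274 over 3 pairs and arrays on the same slide 0.552 over 42. With the replicate block 1 member was called in DB#1 against M, 0 in DB#3 against M, 2 in J365 against M0 and 2 in the difference between models. Over all values of single members, 6464 kept their direction and side of the threshold, 749 uncalled values moved by more than the spread or changed sign, 81 passed the threshold, 49 no longer did and 0 called values changed sign.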
